A study of Drosophila melanogaster with 29 samples.

Results

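The MSL complex is the machine that Drosophila males use for dosage compensation, the raised transcription of their single X chromosome. Its genes were followed through a series on gain and loss of menin, the product of Mnn1. Members were taken by name: msl-1, msl-2, msl-3, mle, mof, and the noncoding RNA genes roX1 and roX2, with a probe counted only where its sole gene symbol is a member. Of the 7 genes, 5 were measured, among 11151 genes named by a single-gene probe on either array. On the adult arrays each of the 5 has 1 probe set, and on the embryo arrays each has 2 spots, 10 in all. The roX genes are named by no probe on either array, so they were not analysed here.

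In male flies, as background, the complex spreads along the X chromosome and acetylates histone H4 there. MSL1 is its scaffold, MSL2 a RING finger protein, MSL3 a chromodomain protein, MLE a helicase that remodels the roX RNAs, and MOF the acetyltransferase. Females make almost no MSL2 because Sxl, the female switch protein, blocks splicing and translation of the msl-2 RNA. Much of that control acts after transcription, and arrays measure RNA only. MOF also works outside the complex, in both sexes, within the NSL complex at promoters. In the reference annotation (RefSeq, Release 6) msl-1 and msl-2 lie on 2L, msl-3 on 3L, mle on 2R and mof on the X, as do roX1 and roX2. The gene model of msl-3 overlaps that of form3, and the one of msl-2 overlaps mir-4971.

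Adults were collected 3 to 5 days after eclosion, at 25 C, and each array held flies of one sex. The 6 female arrays were wt (1), the control genotype X113_X84 (1), heterozygotes X113_Y79 and X84_X46 (1 each), and mnn- flies X46_Y79 and Y79_X46 (1 each). The 5 male arrays were wt (1), control X113_X84 (1), and mnn- flies X46_Y79, Y79_X46 and Y79_Y79 (1 each). Wt and control arrays are called non-mutant together. A free-text note attached to the adult samples describes all of them as null for Mnn1, against their titles; the titles were used. The 18 embryo arrays are two-colour. On 16 of them mnn++ embryos, which carry a full-length Mnn1 cDNA under GAL4 control, were set against cntrl1 or cntrl2, which have the driver without the construct. Collections ran over 2-4, 4-6, 6-8 and 2-16 h, each pairing in both dye orientations, and 2 further arrays compared the controls at 2-16 h. The driver, how the controls differ, and the sex of the embryos are not given in the labels, which also name no separate cultures. Adult p-values therefore measure the spread between these arrays. Embryo p-values over all windows measure the spread between windows, unless each array is its own value. Those within or between single windows measure the spread between the comparisons with cntrl1 and cntrl2.

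The sex labels were checked on marker genes of the female and male reproductive tissues, summed as linear intensities. Yolk protein genes (3 of 3 measured) summed to between 18215 and 30019 in females, and ovary genes (7 of 8 measured) to between 5610 and 10996. Seminal protein genes (5 of 5) summed to between 6355 and 7745 in males and 93 to 244 in females, and testis genes (6 of 6) to between 2116 and 2530 and 218 to 251. Of the 6 testis genes 4 were higher in males, can did not pass, and twe, a meiotic phosphatase gene, was lower, with a male minus female difference of -1.30 ± 0.18 in non-mutant flies (adjusted p = 0.000108, limma). One array stands apart. The wt male had a yolk protein sum of 6664, against 390 to 461 in the other 4 males, and an ovary sum of 1873, against 559 to 831. The members' adult limma comparisons that use it are also given without it, as are the list counts and the X chromosome values. The class means and the nearest profiles include it. Over both sexes Mnn1, the targeted gene, was not lower in mnn- flies: its probe set read 0.13 ± 0.10 higher (log2, SE, adjusted p = 0.863, limma). In females it read 0.36 ± 0.15 higher, without overlap, as for 18.8% of all probe sets, and in males -0.09 ± 0.14. Neither passed. Its male minus female difference was -0.68 ± 0.14 in mnn- flies (adjusted p = 0.00107, limma) and -0.23 ± 0.15 in non-mutant flies (adjusted p = 0.225). Of all probe sets, 30.4% were called lower in mnn- males. Where that probe set lies relative to the lesions is not given, so it does not check the genotype labels.

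Of the 5 members, 3 were lower in male than in female flies: msl-1, msl-3 and mof. That count stands beside 28.7% of all probe sets lower in non-mutant males and 30.4% in mnn- males. In non-mutant flies the male level of msl-1 was 1.36 ± 0.16 lower on the log2 scale, that of msl-3 1.06 ± 0.15 lower and that of mof 0.49 ± 0.16 lower. The gene whose protein makes the complex male-specific, msl-2, and the helicase gene mle did not pass the test. No member passed the test between mnn- and non-mutant flies.

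The scaffold gene msl-1 had the widest difference. Its log2 RMA values in females were 6.60 (wt), 6.99 (control), 6.78 and 7.09 (heterozygotes X113_Y79 and X84_X46), and 6.89 and 7.14 (mnn-, X46_Y79 and Y79_X46). In males they were 5.44 (wt), 5.41 (control), and 5.48, 5.65 and 5.36 (mnn-, X46_Y79, Y79_X46 and Y79_Y79). The highest male array lay below the lowest female array. The female level was 2.57-fold the male one in non-mutant flies (adjusted p = 2.78e-05, limma over 13966 probe sets, Benjamini-Hochberg) and 2.85-fold in mnn- flies (adjusted p = 4.15e-06). Only 5.62% of all probe sets had a more negative sex difference in non-mutant flies.

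The chromodomain gene msl-3 read 5.91 (wt), 5.90 (control), 5.72 and 6.01 (heterozygotes), and 6.03 and 6.23 (mnn-) in females, in the same array order. Its male values were 4.93 (wt), 4.75 (control), and 4.63, 4.98 and 4.55 (mnn-). The sexes did not overlap here either. The female level was 2.09-fold the male one in non-mutant flies (adjusted p = 0.000139) and 2.66-fold in mnn- flies (adjusted p = 5.54e-06, limma). The overlapping gene form3 has 3 probe sets of its own, and their male minus female means were -0.00087, 0.0318 and 0.83.

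The acetyltransferase gene mof, itself X-linked, differed less. All its values, like those of mle, lay below the lowest array median, 5.464. So did all male values of msl-3, and those of msl-1 in the wt, control and Y79_Y79 males. In non-mutant flies 23.6% of all probe sets had a more negative sex difference than mof. Its female values were 4.82 (wt), 4.73 (control), 4.61 and 4.99 (heterozygotes), and 4.67 and 5.10 (mnn-), and its male values 4.40 (wt), 4.17 (control), and 4.20, 4.24 and 4.21 (mnn-). All males lay below all females, by a narrower gap than for msl-1 and msl-3. The female level was 1.40-fold the male one in non-mutant flies (adjusted p = 0.0211, limma) and 1.59-fold in mnn- flies (adjusted p = 0.00177). The non-mutant call rests on single arrays: without the control male the male minus female difference was -0.38 (adjusted p = 0.118), and without the wt female it was -0.45 (adjusted p = 0.098).

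The msl-2 values overlapped between the sexes. Females ran from 5.73 to 5.93, with a median of 5.78, and the male arrays read 6.09 (wt), 5.72 (control), and 6.06, 5.92 and 5.90 (mnn-). The lowest male array was below every female array and the highest above them. The male minus female difference was 0.13 ± 0.13 in non-mutant flies (95% interval -0.16 to 0.42, adjusted p = 0.464, limma) and 0.17 ± 0.12 in mnn- flies (interval -0.10 to 0.43, adjusted p = 0.261). Without the wt male the non-mutant difference was -0.06 (adjusted p = 0.75).

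For mle, females ran from 4.97 to 5.14, with a median of 5.07, and the males read 4.99 (wt), 5.00 (control), and 4.79, 4.93 and 4.88 (mnn-). The ranges overlapped through the 2 non-mutant males, while the 3 mnn- males lay below every female. At least 29.8% of all probe sets shared that order of mnn- males, since all males lay below all females there. The difference was -0.05 ± 0.10 in non-mutant flies (interval -0.27 to 0.16, adjusted p = 0.684) and -0.19 ± 0.09 in mnn- flies (interval -0.38 to 0.01, adjusted p = 0.0946, limma). Without the wt male the non-mutant difference was -0.05 ± 0.12 (adjusted p = 0.792).

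**Figure D1:**
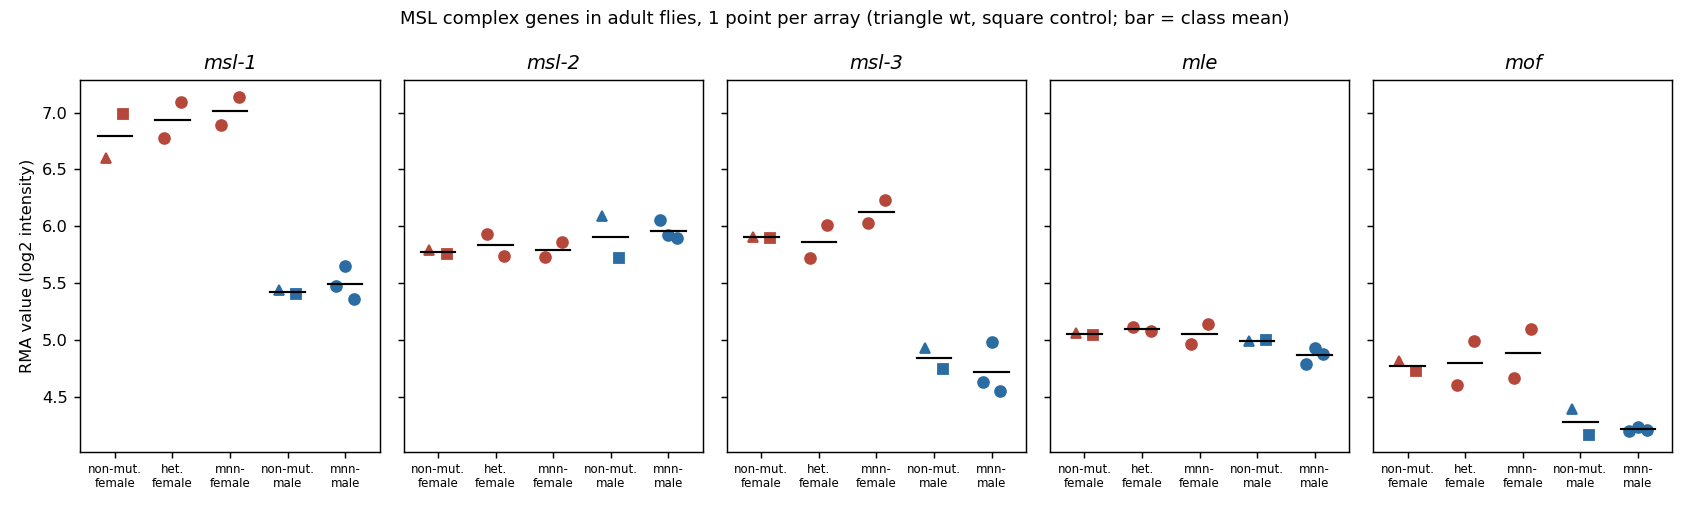
Log2 RMA value of the 5 measured MSL complex genes on each of the 11 adult arrays, by sex (females red, males blue) and genotype class, with a bar at the class mean and triangles for wt and squares for control. For msl-1, msl-3 and mof every male point lies below every female point, and for msl-2 and mle the sexes overlap.

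The count of 3 of 5 members lower in males has to be read against a table in which such differences are common. In non-mutant flies 53.4% of probe sets differed in either direction, and in mnn- flies 58.4%. All males lay below all females for 29.8% of probe sets. The median member difference was -0.49 in non-mutant flies and -0.67 in mnn- flies, against 0.02 and 0.04 over all probe sets. Ovary and yolk sums moved with sex in the same direction as msl-1, msl-3 and mof, and their part in these differences was not tested. In whole flies, fewer cells of a type and less RNA per cell cannot be told apart. Without the wt male, the same counts of members were called, 3 in non-mutant and 3 in mnn- flies, and the non-mutant differences were -1.38 ± 0.20 for msl-1 (adjusted p = 0.000188), -1.15 ± 0.19 for msl-3 (adjusted p = 0.000395) and -0.60 ± 0.19 for mof (adjusted p = 0.0191, limma). The control male is then the lone non-mutant male and is assumed to vary like the other classes.

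**Figure D2:**
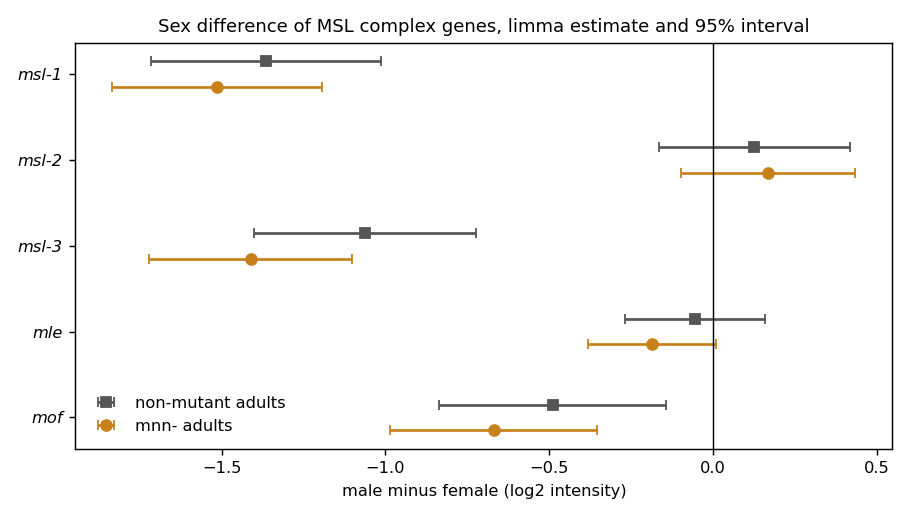
Male minus female difference (log2) of each measured MSL complex gene in non-mutant flies (grey squares) and mnn- flies (orange circles), with the 95% interval of the limma fit. The intervals of msl-1, msl-3 and mof lie below 0 in both, and those of msl-2 and mle include 0 in both.

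Across the 5 classes, with the wt male included, the order of the mean levels followed sex for all 5 members. Male means were the higher ones only for msl-2. Male class means lay below female ones for at least 29.8% of all probe sets, since all males lay below all females there. For msl-1 the order ran from non-mutant males (mean 5.43) and mnn- males (5.50) to non-mutant (6.79), heterozygous (6.94) and mnn- females (7.01). Neighbours within a sex overlapped. For msl-3 it ran from mnn- males (4.72) and non-mutant males (4.84) to heterozygous (5.87), non-mutant (5.91) and mnn- females (6.13). Within the sexes, the only neighbours of msl-3 that did not overlap were non-mutant and mnn- females, an order shared by 18.8% of all probe sets. For mof it ran from mnn- males (4.22) and non-mutant males (4.29) to non-mutant (4.77), heterozygous (4.80) and mnn- females (4.88), with overlap between neighbours of a sex. For msl-2 it ran from non-mutant (5.78), mnn- (5.79) and heterozygous females (5.84) to non-mutant (5.90) and mnn- males (5.96). Without the wt male the msl-2 order by sex did not hold, since the control male read 5.72, below the female means. For mle it ran from mnn- males (4.87) and non-mutant males (5.00) to non-mutant (5.05), mnn- (5.05) and heterozygous females (5.10). Single arrays of the sexes overlapped for both.

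Loss of Mnn1 was then set against the non-mutant flies. In limma, 0 of 5 members passed in mnn- against non-mutant flies over both sexes, where 0.0358% of all probe sets did, and 0 had an unadjusted p under 0.05. The estimates ran from -0.06 ± 0.07 for mle to 0.15 ± 0.11 for msl-1 (interval -0.09 to 0.38). In females alone, where 0.00716% of probe sets were called, both mnn- values of msl-3 lay above both non-mutant ones, by 0.23 ± 0.15 (interval -0.11 to 0.57). The same held for 18.8% of all probe sets. In males alone, where 0.0286% were called, all 3 mnn- values of mle lay below both non-mutant ones, with a difference of -0.13 ± 0.09 (interval -0.32 to 0.07), as for 10.5% of all probe sets. Neither passed, with adjusted p = 1.0 and 0.788. Without the wt male 0 of 5 members passed again, and the estimates over both sexes ran from -0.07 ± 0.07 for mle to 0.15 ± 0.12 for msl-1. In males alone they then ran from -0.14 ± 0.11 for mle to 0.25 ± 0.12 for msl-2 (adjusted p = 0.386, limma).

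In heterozygous against non-mutant females, 0 of 5 members passed in limma, with 0.0% of all probe sets called and 0 members at an unadjusted p under 0.05. The largest estimate there was 0.14 ± 0.16, for msl-1. Against heterozygous females, mnn- females likewise gave 0 of 5 (background 0.0%, 0 unadjusted), with msl-3 at 0.27 ± 0.15 (interval -0.07 to 0.61, adjusted p = 0.944).

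The sex difference itself was compared between genotypes. In the interaction 0 of 5 members passed in limma, with a background of 0.0% and 0 at an unadjusted p under 0.05. For msl-3 the sex difference in mnn- minus that in non-mutant flies was -0.35 ± 0.21 (interval -0.81 to 0.11, adjusted p = 0.992). For msl-1 the term was -0.15 ± 0.22, for mof -0.18 ± 0.21, for mle -0.13 ± 0.13 and for msl-2 0.04 ± 0.18. Again 0 of 5 passed without the wt male, with -0.26 ± 0.23 for msl-3 and 0.23 ± 0.16 for msl-2.

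Many genes of the lists set beside the members were also lower in males. The first list, called cofactors here, holds chromatin and nuclear pore genes and is not limited to partners of the MSL complex. Of its genes 11 were measured by 13 probe sets, and 11 of the 13 were lower in males in both non-mutant and mnn- flies. The shares over all probe sets were 28.7% and 30.4%, and they stand beside the counts of the next lists too. Clamp, a zinc finger protein that brings the complex to GA repeats, differed by -1.66 ± 0.17 in non-mutant flies (adjusted p = 8.78e-06), and the gene of the heterochromatin protein HP1a by -1.51 ± 0.10. The nuclear pore gene Nup153 differed by -1.54 ± 0.09 and Mtor, of the same structure, by -1.29 ± 0.17. The H3 lysine methyltransferase gene Set2 differed by -1.21 ± 0.17, the remodeller ATPase gene Iswi by -0.97 ± 0.10 and JIL-1, a histone H3 kinase, by -0.92 ± 0.22. MRG15, a chromodomain gene related to msl-3, showed the narrowest called difference, -0.47 ± 0.11. The 3 probe sets of E(bx), a NURF remodeller subunit, ran from -1.98 to -0.96. Su(var)3-7 (-0.02 ± 0.11) and Trl (-0.05 ± 0.19) did not pass.

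The NSL complex, the other home of MOF, had 5 of its 6 listed genes measured. All 5 were lower in non-mutant males, with differences of -1.15 ± 0.10 for wds, a WD repeat protein shared with histone methyltransferase complexes, and -0.41 ± 0.10 for nsl1, which recruits MOF. The other subunits Rcd1, Rcd5 and dgt1 differed by -1.07 ± 0.14, -0.95 ± 0.14 and -0.74 ± 0.09. In mnn- flies 4 of 5 were, and nsl1 read -0.19 ± 0.09 (adjusted p = 0.0932, limma). No NSL gene rose in males.

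The genes that keep msl-2 off in females or splice Sxl were measured by 6 probe sets of 5 genes, of which 5 were lower in males in both genotypes. Both Sxl probe sets were among them, at -1.66 ± 0.12 and -2.07 ± 0.21 in non-mutant flies. Hrb27C, an RNA-binding protein that acts on msl-2 RNA, differed by -2.55 ± 0.15, fl(2)d, needed for female Sxl splicing, by -1.20 ± 0.16, and Unr, which represses msl-2 translation together with Sxl, by -0.85 ± 0.13. The remaining gene, vir, read -0.24 ± 0.10 (adjusted p = 0.0689). Without the wt male the called counts in non-mutant flies were again 11 of 13, 5 of 5 and 5 of 6. Median differences of the lists in non-mutant flies were -1.21, -0.95 and -1.43, with the same markers of ovary and yolk moving beside them.

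**Figure D3:**
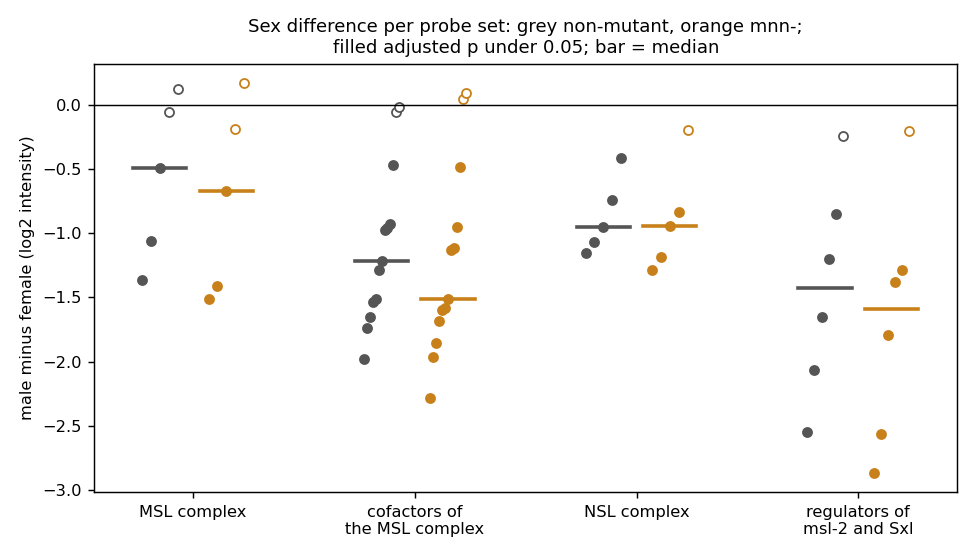
Male minus female difference (log2) per probe set for the MSL complex genes and the lists of cofactors, NSL complex genes and regulators of msl-2 and Sxl, in non-mutant (grey) and mnn- flies (orange), filled where the adjusted p is under 0.05, with a bar at the list median. All called points lie below 0.

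In the comparisons of genotype, none of the 24 probe sets of these lists passed in limma. The smallest p over both sexes belonged to E(bx), 0.25 ± 0.07 higher in mnn- flies at one probe set (adjusted p = 0.473) and 0.20 ± 0.08 at another (adjusted p = 0.654). For the NSL genes it was nsl1, at -0.15 ± 0.07 (adjusted p = 0.705), then Rcd1, at 0.17 ± 0.09 (adjusted p = 0.772). For the regulators, one Sxl probe set read -0.25 ± 0.14 and fl(2)d -0.19 ± 0.11, both with adjusted p = 0.773. Of the 24, 2 had an unadjusted p under 0.05 in that comparison, both from E(bx), against 7.31% of all probe sets.

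Genes whose profile over the 11 adult arrays lay closest to a called member were found by the root mean square difference, after each profile's own mean was taken off. The closest to msl-1 were Tbc1d22 (0.0993), SF1 (0.102) and ball (0.109), and msl-3 stood at 0.182. The closest to msl-3 were bon (0.0764), RASSF8 (0.0776) and idc (0.0883). The closest to mof were CG15356 (0.0721), Fit2 (0.0777) and IFT43 (0.0806). The 11 arrays share 2 sexes, so any gene with a like sex difference comes near.

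Within the 6 female arrays alone, the members' values were correlated over 10 pairs. The highest Pearson r was that of msl-3 with mof, at Pearson r = 0.796 (exact permutation p = 0.0514, adjusted p = 0.472) and Spearman rho = 0.657 (exact permutation p = 0.175, adjusted p = 0.583). Without the 2 arrays farthest from the median of msl-3, r was 0.121, over too few arrays to tell whether the relation rests on those left out. The same step by the median of msl-1 moved the r of msl-1 with mof from 0.622 to 0.923. The highest Spearman rho was that of msl-2 with mle, 0.771 (exact permutation p = 0.103, adjusted p = 0.583). None of the 10 pairs passed.

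The X chromosome, on which the complex acts, was compared with the autosomes on each adult array as the median of 2085 X-linked probe sets minus that of 10271 autosomal ones. In males this was 0.0498 ± 0.0376 (log2, SD, n = 5) and in females 0.332 ± 0.0180 (n = 6). The sexes did not overlap, and the exact two-sided permutation p was 0.00216, the smallest this design allows. The permutation pooled the genotypes, and heterozygotes were among the females only. The wt male had the highest male value, 0.109, and the other 4 males lay between 0.005 and 0.049. The male minus female gap was -0.282 over all probe sets, -0.297 without the wt male (exact permutation p = 0.00476, the smallest for that number) and -0.233 over probe sets with a mean log2 value over 7. Leaving out probe sets with a sex difference over 1 removes part of the difference being measured, and gave -0.110. Taken gene by gene, the median male minus female difference in non-mutant flies was -0.027 for X-linked and 0.034 for autosomal probe sets. In mnn- flies these were -0.027 and 0.053. The non-mutant medians without the wt male were -0.083 and -0.004. In each case the X-linked and autosomal medians lay closer together than the -0.282 gap, which is therefore not the size of a typical gene's difference.

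In embryos the question was whether excess menin moved the same genes. Deposited ratios were multiplied by -1, which puts genes higher in mnn++ embryos above 0. That direction is likely, not stated: it rests on Mnn1, which was higher in mnn++ on all 4 arrays of the 2-16 h window (0.324 to 0.817). In the other windows Mnn1 averaged 0.081 (2-4 h), 0.114 (4-6 h) and 0.244 (6-8 h), and it was above 0 on 2, 3 and 4 of 4 arrays. Mnn1 also differed by dye, averaging 0.133 over the arrays with mnn++ in Cy3 and 0.381 over those with mnn++ in Cy5. With windows as replicates its spots read 0.23 ± 0.07 (adjusted p = 0.227) and 0.29 ± 0.07 (adjusted p = 0.106, limma), and neither passed there or in a single window. With each array as its own value both passed over 4 windows (adjusted p = 0.0272 and 0.00232). Over the 4 windows, 0 of 10 member spots passed in limma, where 0.26% of all 30377 spots did, and 4 of 10 had an unadjusted p under 0.05, against 11.4% of all spots. Those 4 were both spots of msl-3 and 1 each of msl-2 and mle.

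Of the members, msl-3 came nearest to the threshold. Averaged over its spots and both dyes, its ratio (log2) was 0.13 against cntrl1 and 0.25 against cntrl2 at 2-4 h, -0.07 and 0.28 at 4-6 h, 0.19 and -0.01 at 6-8 h, and -0.01 and 0.25 at 2-16 h. The window means were above 0 in all 4 windows, while 5 of 8 comparisons and 12 of 16 arrays were. Over 4 windows its spots read 0.14 ± 0.04 (adjusted p = 0.209) and 0.11 ± 0.03 (adjusted p = 0.248), with n = 4 windows. Against cntrl1 alone the second spot fell to 0.03 ± 0.05, and against cntrl2 alone it was 0.19 ± 0.06. The highest array, 0.472, was the one of mnn++ in Cy5 against cntrl2 at 4-6 h, whose spots spread most widely (SD 0.304) and whose paired spots of a gene correlated at 0.266, against 0.455 to 0.724 on the other arrays. Without that array the spots of msl-3 read 0.11 ± 0.05 and 0.09 ± 0.04.

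For msl-2 the ratios were -0.04 and -0.17 at 2-4 h, -0.08 and -0.01 at 4-6 h, -0.16 and -0.01 at 6-8 h, and -0.02 and 0.07 at 2-16 h, against cntrl1 and cntrl2 in turn. All but 1 of the 8 comparisons lay below 0. The 4-window estimates were -0.08 ± 0.04 (adjusted p = 0.423) and -0.02 ± 0.04 (adjusted p = 0.886, limma) for the 2 spots. The ratios differed by dye: the 8 arrays with mnn++ in Cy3 averaged -0.133 and the 8 with mnn++ in Cy5 0.029.

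The helicase gene mle had window means of 0.073, -0.003, 0.010 and 0.066 in the order 2-4, 4-6, 6-8 and 2-16 h. Its 2 spots gave 0.08 ± 0.04 (adjusted p = 0.432) and -0.01 ± 0.04 (adjusted p = 0.953), opposite in sign. The mof means were -0.009, -0.037, 0.082 and 0.008, and both of its spots gave 0.01 ± 0.04. Its ratios also differed by dye: with mnn++ in Cy3 7 of 8 arrays were above 0 (mean 0.143), and with mnn++ in Cy5 1 of 8 was (mean -0.121). Differences by dye were not confined to these genes. Over pairs of mnn++ arrays the median correlation was 0.329 in the same dye orientation and -0.247 in opposite ones.

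The msl-1 ratios differed between the controls at 2-16 h. There they were -0.007 against cntrl1 and 0.24 against cntrl2, with both dye orientations against cntrl2 high (0.217 and 0.262) and both against cntrl1 near 0 (0.012 and -0.027). The direct arrays of cntrl1 against cntrl2 in the same window gave 0.028 and 0.295. In the 3 shorter windows the msl-1 means lay between -0.031 and 0.061. At 4-6 h its 2 spots read -0.12 ± 0.09 and 0.11 ± 0.09, opposite in sign. Over 16 arrays the spots of msl-1 correlated at -0.35. Over 4 windows its spots gave 0.02 ± 0.04 and 0.05 ± 0.04, with adjusted p = 0.917 and 0.632.

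**Figure D4:**
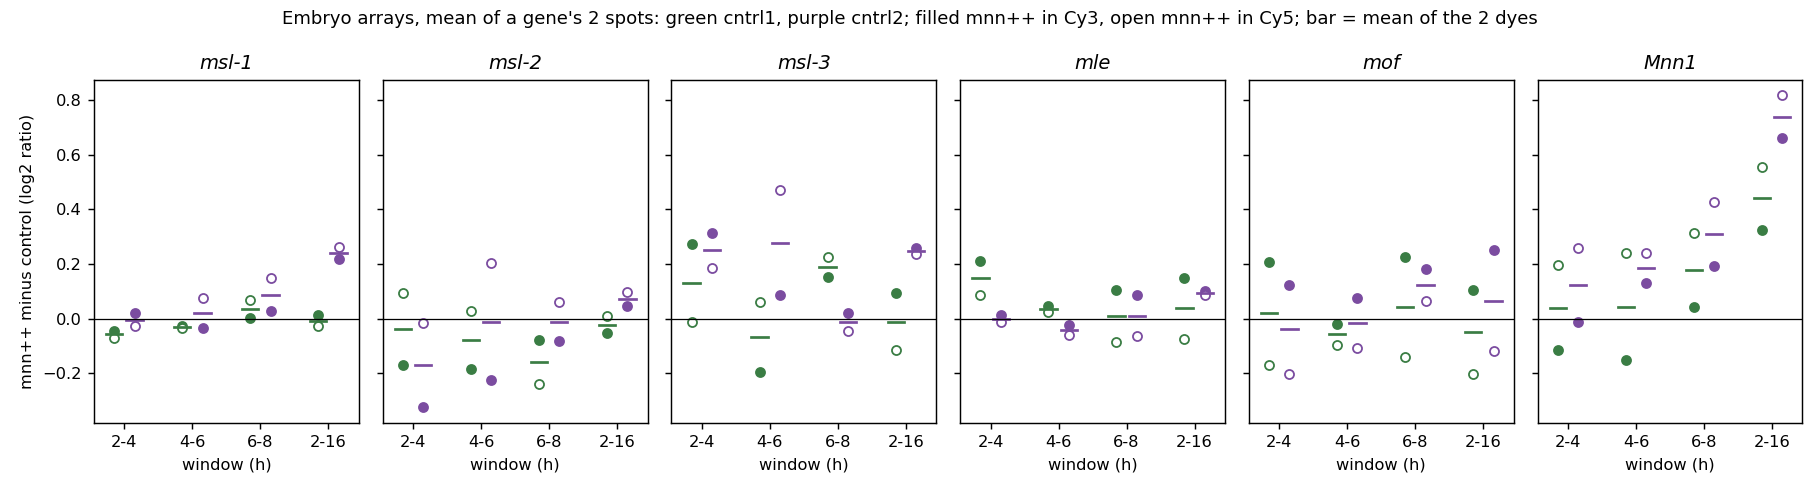
Log2 ratio of mnn++ over control for the 5 measured MSL complex genes and Mnn1 on each of the 16 arrays, by collection window, as the mean of a gene's 2 spots, with green for cntrl1 and purple for cntrl2, filled for mnn++ in Cy3, and a bar at the mean of both dyes. Mnn1 averages 0.589 at 2-16 h, while the window means of the MSL genes stay between -0.104 and 0.190.

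Taken window by window, 0 of 10 member spots passed at 2-4, 4-6, 6-8 or 2-16 h (background 0.0% in each), and 2, 0, 0 and 1 had an unadjusted p under 0.05. Over all spots 7.33%, 10.3%, 5.23% and 2.68% had. The F test between the 3 shorter windows gave 0 of 10 as well (background 0.0%, 0 unadjusted). Between the controls, read through mnn++ in each window, 0 of 10 passed (background 0.0395%) and 1, a spot of msl-1 at 0.18 ± 0.08, had an unadjusted p under 0.05 (adjusted p = 0.644), against 7.67% of all spots. In mnn++ against control embryos over 4 windows, none of the list spots passed in limma: 26 for the cofactors, 12 for the NSL genes and 10 for the regulators, of which 6, 0 and 1 had an unadjusted p under 0.05, where 11.4% of all spots had. Among them MRG15 read 0.11 ± 0.04 (adjusted p = 0.262), Iswi -0.12 ± 0.04 (adjusted p = 0.297) and Unr 0.15 ± 0.06 (adjusted p = 0.357), each at 1 spot.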

How the data were processed

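The authors deposited the adult arrays as log2 intensities from RMA (affy 2.12.0) and the embryo arrays as log ratios from limma 2.12.0, per the submitters' processing notes. No header states the base or sign of the ratios, which were read as log2. Array medians ran from 5.464 to 5.533 in adults and from -0.015 to 0.011 in embryos. Arrays give no molecule counts, so their number limits precision.

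Of 14010 adult rows, 44 control probe sets were left out. Of 31464 embryo spots, 30377 had a value on all 18 arrays. Tests used limma 3.58.1 in R 4.3.3, two-sided, Benjamini-Hochberg adjusted p under 0.05 over the whole table, and errors are SEs of those fits unless given as SD. Adults were fitted with 5 classes of sex and genotype. Embryo dye orientations were averaged, then the controls, leaving 4 windows as replicates. Single windows used 8 dye-averaged comparisons. The fits were tested on simulated data with 200 changed rows. In the non-mutant sex comparison they found 20.5% of log2 changes of 0.5 and 90.5% of changes of 1.0. For mnn- against non-mutant flies over both sexes these were 70.5% and 96.0%. Over the 4 embryo windows 56.5% of changes of 0.3 and 96.0% of changes of 0.6 were found. These shares need not hold for the real sex comparison, where 53.4% of probe sets were called. Named genes are the members, Mnn1, list genes past the threshold (otherwise the 2 smallest p) and the 3 nearest profiles. Members and lists were chosen with earlier results of these data known. Top2, MBD-R2, how and snf were unmeasured on both arrays, as were Trl and Sxl on the embryo array.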

Additional observations from a re-analysis of the deposited data

Results flagged for a closer look

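In the embryo ratios, 20 sets of 4 window values (the mnn++ ratio and the difference between the controls, at each of 10 member spots) were searched for a window standing apart from the rest of its set. Chance alone gives about 1 in 20. A spot of msl-3 stood apart at 2-4 h, with a ratio of 0.285 in mnn++ over control, and a spot of mof stood apart at 6-8 h, with 0.118. The other spot of each gene did not stand apart. For msl-3 it read 0.095 at 2-4 h, within the 0.091 to 0.131 of its other windows. For mof it read 0.047 at 6-8 h and 0.057 at 2-16 h. The F test between the 3 shorter windows gave unadjusted p = 0.280 and 0.301 for the flagged spots (limma).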

How the results depend on the processing

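Of 777 adult member values recomputed under other settings, 771 kept their side of the threshold, 5 lost it, 1 gained it and 0 reversed while called; 41 that were uncalled throughout changed sign. All 5 lost calls were the non-mutant sex difference of mof: adjusted p = 0.0508 with array weights, 0.148 without both control arrays, 0.0601 without both wt arrays, and 0.118 and 0.098 without the control male or the wt female (limma). The gain was mle in mnn- flies, -0.25 with adjusted p = 0.0261 after quantile normalization. All 490 embryo values stayed uncalled, and 55 changed sign. Averaging the spots of a gene, leaving out the array with the widest spread and pairing the sexes by cross were added after the data were seen. The X minus autosome gap was -0.27954 in non-mutant arrays (exact permutation p = 0.333) and -0.297 in mnn- arrays (p = 0.1), each the smallest p that number of arrays allows.

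Whole-table counts moved by over 1.5 times: mnn- against non-mutant flies from 5 to between 2 and 212, females alone from 1 to between 0 and 130, males alone from 4 to between 1 and 187, heterozygotes from 0 to at most 128, mnn- against heterozygotes from 0 to at most 7, the interaction from 0 to at most 54, mnn++ over 4 windows from 79 to between 0 and 145, and the controls from 12 to between 3 and 170. Against cntrl2 only, single windows reached 300, 51, 21 and 24 calls at 2-4, 4-6, 6-8 and 2-16 h, none a member. The sexes can be paired by genotype in wt, control, X46_Y79 and Y79_X46, with 1 array of each sex. With that cross as a replicate block (8 arrays), msl-1, msl-3 and mof were called in non-mutant (-1.37, -1.06 and -0.49) and mnn- flies (-1.45, -1.33 and -0.67), and 0 of 5 in the interaction, as without the block. Over 13966 probe sets the female and male differences between crosses correlated at 0.274 (control minus wt) and -0.077 (Y79_X46 minus X46_Y79). No replicate numbers pair the genotypes.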
